A study of Mus musculus with 35 samples.

Results

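The fibrillar collagen genes were followed in mouse skin over 4 weeks after irradiation. They were taken by symbol, and all 10 (Col1a1, Col1a2, Col2a1, Col3a1, Col5a1, Col5a2, Col5a3, Col11a1, Col24a1 and Col27a1) had a row among the 36106 genes of the deposited count table. The 35 samples were pieces of skin from 19 females of the inbred laboratory strain C57BL/6J, aged 10 weeks, and were read by bulk RNA sequencing, which pools the RNA of all cells in a piece of tissue. Sham skin came from 3 mice that had no radiation. The other mice received 25 Gy to the left flank (420 seconds at a rate of 3.6 Gy per min), and the treated skin was then shaved. Samples of radiated and of control skin date from weeks 1, 2, 3 and 4, with n = 4 in each of these 8 groups. Radiated and control samples that share a week and a number were taken to come from 1 mouse, since 35 samples came from 19 mice, so control skin is skin of an irradiated animal. Where on the body it was taken is not stated in the labels, and the labels do not say that sham skin was shaved. Each week has its own mice, so a comparison between weeks is also one between animals.

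Fibrillar collagens are the chains that form the rope-like fibrils of connective tissue. Each chain is built around a long stretch of repeated triplets with a glycine first, the chains wind into a triple helix in the cell, and the helices are trimmed, assembled and crosslinked outside it. In skin, dermal fibroblasts make most of it. Type I collagen (Col1a1, Col1a2) is the bulk of the dermis, type III (Col3a1) is mixed into the same fibrils and is known as an early collagen of healing wounds, and type V starts fibrils and limits their width.

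The coding sequences show what joins these genes and where Col24a1 and Col27a1 stand apart. In the longest coding transcript of each gene (GENCODE M21, GRCm38), the longest unbroken run of triplets beginning with a glycine codon held 337 to 344 triplets in 8 members. It held 216 in Col24a1 and 217 in Col27a1, each of which had 2 runs of at least 20 triplets. Col2a1 also had 2 such runs. The first 8 triplets of the longest run are printed for 4 members, Col1a1 and Col3a1 of types I and III and the pair with short runs. The glycine codon that opens each triplet is in capitals, and glycine codons at other places in a triplet are not. They begin at codon 168 of Col1a1 (chr11:94936224-94953042, plus strand), codon 164 of Col3a1 (chr1:45311538-45349706, plus strand), codon 568 of Col24a1 (chr3:145292472-145552011, plus strand) and codon 673 of Col27a1 (chr4:63214004-63334991, plus strand).
Col1a1: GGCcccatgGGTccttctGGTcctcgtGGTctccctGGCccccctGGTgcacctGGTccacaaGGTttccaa
Col3a1: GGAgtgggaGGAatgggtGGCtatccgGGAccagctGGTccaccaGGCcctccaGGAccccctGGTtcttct
Col24a1: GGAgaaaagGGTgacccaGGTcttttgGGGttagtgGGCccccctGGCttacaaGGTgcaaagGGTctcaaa
Col27a1: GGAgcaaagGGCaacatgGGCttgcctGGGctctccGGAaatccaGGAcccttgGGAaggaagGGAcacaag
Over the whole longest run, GGT spelled 55.9% of the glycine codons that open a triplet in Col1a1, 41.3% in Col3a1, 23.1% in Col24a1 and 15.7% in Col27a1.

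The bases just before the gene starts also differed between members. RefSeq start sites on GRCm38.p6 gave a window of 250 bases before to 50 after the start for 7 of the 10 genes. Col3a1 and Col24a1 are shown because they are, of these 7, the most AT-rich and the one with the largest increase in week 3. The 250 bases before the start of Col3a1 (chr1:45311288-45311537, plus strand) had a GC content of 35.2%, against 76.4% for Col5a1 and a median of 52.4% over 32851 promoters. In the Col3a1 sequence the capitals mark TATAAA and both orientations of CAGAC, the Smad-binding core. The second line is a window of 24 bases across the start of Col24a1 (chr3:145292457-145292480, plus strand), with TGACGTCA, the cyclic AMP response element, in capitals.
Col3a1: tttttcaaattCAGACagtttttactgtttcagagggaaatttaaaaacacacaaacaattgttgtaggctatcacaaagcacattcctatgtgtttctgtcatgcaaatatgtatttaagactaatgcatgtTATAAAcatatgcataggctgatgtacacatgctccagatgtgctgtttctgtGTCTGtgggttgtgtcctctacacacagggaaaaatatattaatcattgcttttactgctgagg
Col24a1: gtgtttagTGACGTCAttgcaagt
Searched on both strands of the 300-base windows, TGACGTCA was found in Col24a1 alone of the 7 members and in 1.79% of all promoters. TATAAA was found in Col3a1 alone of the 7 and in 13.6% of all. CAGAC was found in 5 members and 49.6% of all, GGGCGG in 5 and 35.7%, CCAAT in 3 and 37.4%, and TGANTCA in 0 and 7.81%. For Col1a2 and Col27a1 the 250 bases overlap GENCODE transcripts of the same gene, so they are not upstream of every annotated start. Both genes are among the members with CAGAC and with GGGCGG, and Col1a2 is among those with CCAAT. No matches in the 7 windows overlapped one another, and a match describes the sequence only.

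Sample totals ran from 17362853 to 28487885 counts, and levels are given as CPM, which relates a gene to 1000000 counts of its library after scaling between libraries. Markers of other structures in the skin differed between samples. The summed level of 16 genes of growing hair follicles was 2356 to 36107 CPM in sham skin, and it was 1179.9 CPM or more in 6 of the 32 other samples. These were samples 1 and 4 of control week 1, sample 1 of control week 2, sample 4 of both control and radiated week 3, and sample 3 of radiated week 4. The summed level of 10 skeletal muscle genes was 11108 to 23290 CPM in radiated and 51871 to 93688 CPM in control skin of week 3. In bulk tissue, fewer cells of a type and less RNA per cell cannot be told apart.

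Types I and III made up most fibrillar collagen mRNA in sham skin. Per kilobase of transcript, the mean levels in sham skin were 508 ± 212 CPM per kb for Col1a1, 398 ± 162 for Col1a2 and 464 ± 175 for Col3a1 (SD, n = 3). On that scale Col5a1, Col5a2 and Col5a3 lay between 31.5 and 36.7, Col27a1 at 2.79, Col11a1 at 2.15, Col24a1 at 0.382 and Col2a1 at 0.0391. The steps between these 5 tiers exceeded the spread between samples. Within the tiers of types I and III, of type V, and of Col27a1 and Col11a1, the means differed by less than 1 SD. All 10 members together held 0.88% ± 0.29 of the counts in sham skin (SD, n = 3). The lowest share, 0.33% ± 0.12, was that of control skin in week 4 and the highest, 4.35% ± 0.89, that of radiated skin in the same week (SD, n = 4 each). In the 2 groups of week 4 it ran from 0.19% to 0.44% and from 3.21% to 5.36%, with no overlap.

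**Figure D1:**
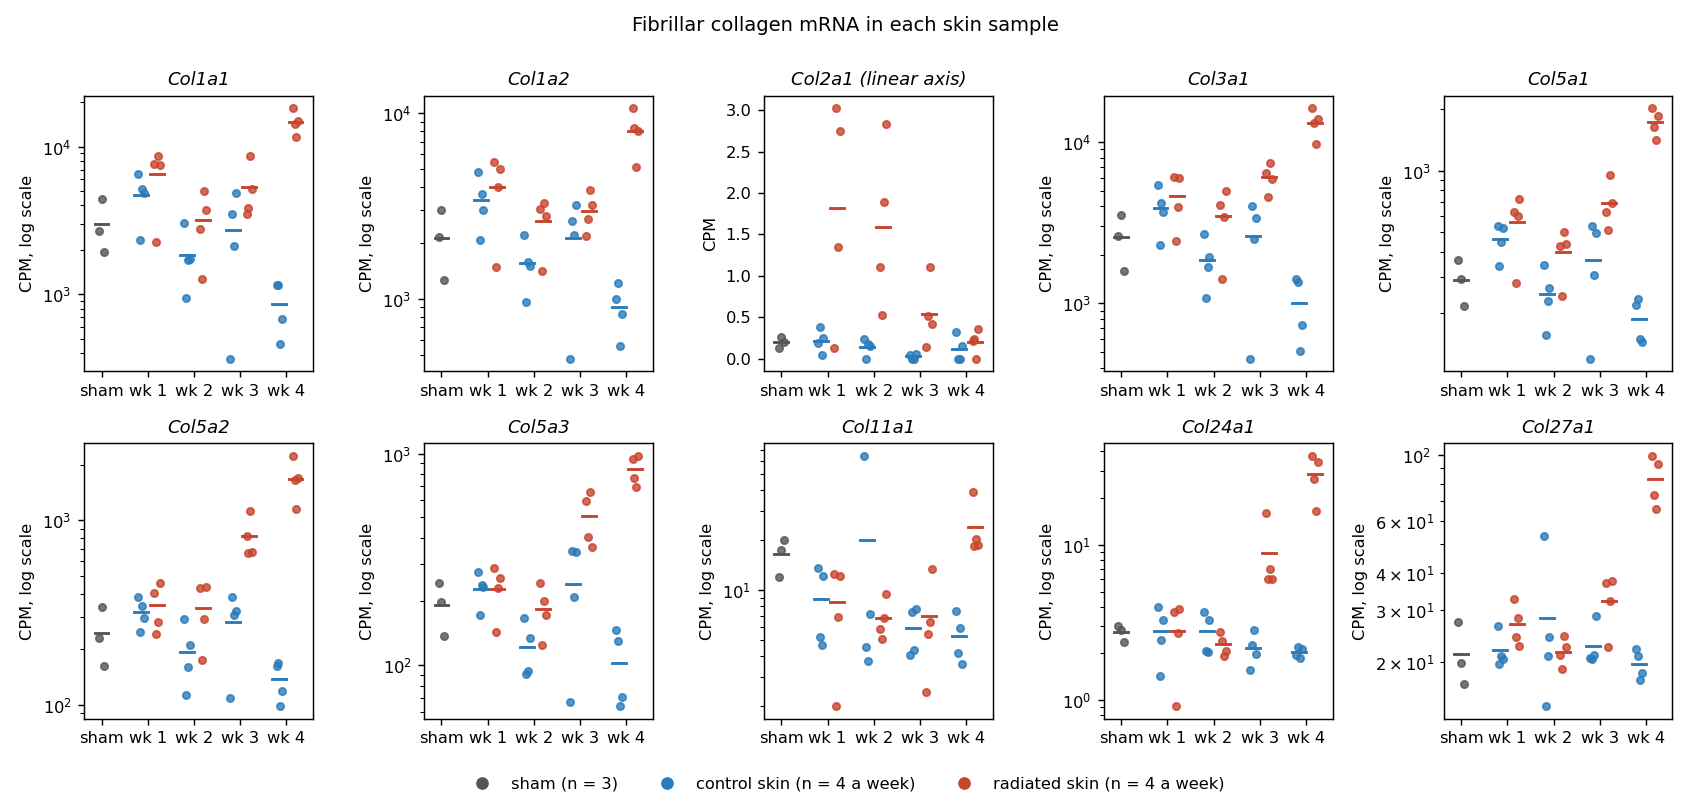
Level of each fibrillar collagen gene in CPM in every sample, with a log axis except for Col2a1 (linear). Points are samples, bars are group means, colours are sham (n = 3), control and radiated skin (n = 4 a week each). In 9 panels the radiated samples of week 4 lie above all control samples of week 4, and the Col2a1 panel has its high samples in radiated skin of weeks 1 to 3.

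Radiated skin was first compared with control skin of its own week, to find which fibrillar collagens differed after irradiation and when. Through week 2 no member passed the test, in week 3 Col24a1 and Col5a2 were higher in radiated skin, and in week 4 all 9 members tested were higher, by 4.23-fold (Col27a1) to 17.2-fold (Col1a1). Of all genes tested 27.2% passed in week 3 in either direction, and 2 of 9 members is no larger a share than that. Higher in radiated skin, as both members were, were 13.6% of genes, and whether 2 of 9 exceeds this share was not tested. In week 4, 48.4% of genes passed and 24.2% were higher. Col2a1 had too few counts to be tested by that model in weeks 1, 3 and 4. A member was counted as changed at an adjusted p under 0.05 in edgeR's quasi-likelihood test, adjusted over all genes tested.

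**Figure D2:**
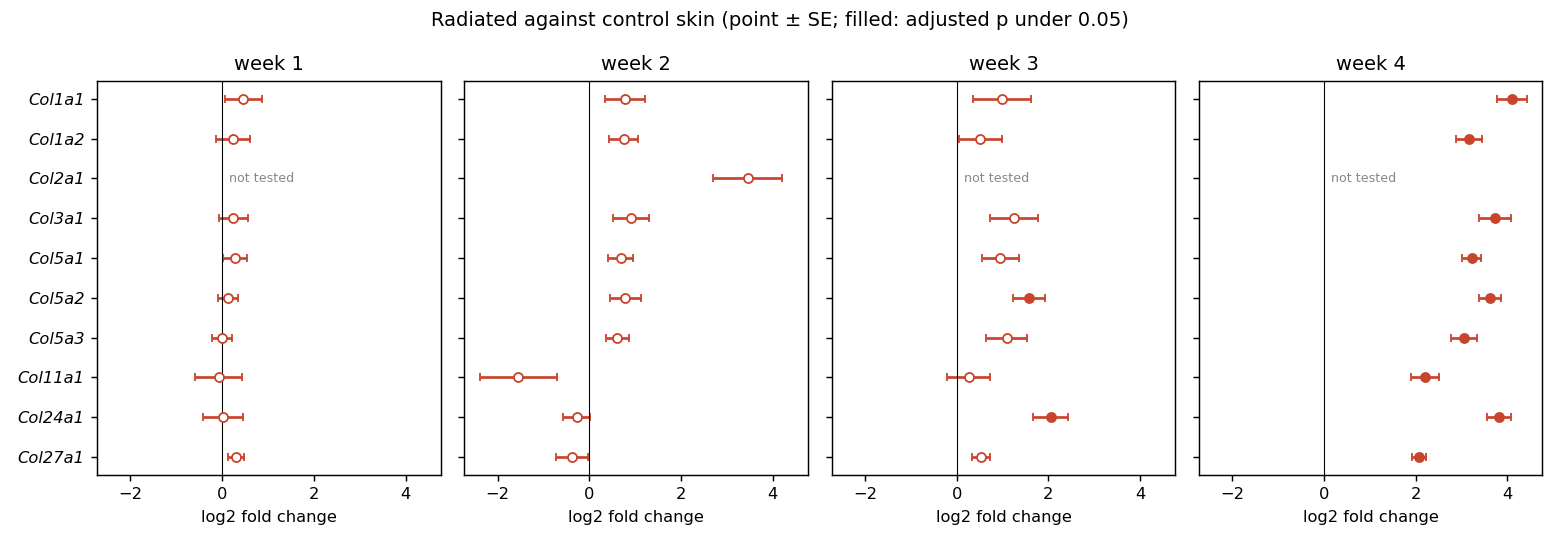
Log2 fold change of radiated against control skin for each member and week, as point and standard error (n = 4 each). Filled points have an adjusted p under 0.05 in edgeR, which are Col24a1 and Col5a2 in week 3 and all 9 tested members in week 4.

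In week 1, 0 of 9 members tested passed in edgeR, as did 0% of 17578 genes, and 0 members had an unadjusted p under 0.05. DESeq2 called 1, and 2.26% of genes. The log2 fold changes lay between -0.07 (Col11a1) and 0.47 (Col1a1), with a median of 0.24 beside 0.05 for all genes. Every member's radiated and control samples overlapped. Col1a1, the larger subunit gene of type I, read 7585, 2272, 8694 and 7501 CPM in the 4 radiated samples and 6572, 2329, 5154 and 4869 CPM in the 4 control samples. Sample 2 was the lowest of both groups.

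In week 2, 0 of 10 members passed in edgeR, as 0.00577% of 17345 genes did, while 6 members had an unadjusted p under 0.05. No share of all genes was taken for this or the other counts of members at an unadjusted p, so these counts have no base beside them. The median log2 fold change of the 10 members, Col2a1 included, was 0.72, beside -0.0025 for all genes. With the mouse as a block, 4 of the 9 members other than Col2a1 passed in edgeR, all higher in radiated skin, where 3.7% of genes passed in that fit and 2.85% were higher. They were Col1a2 (log2 fold change 0.74, adjusted p 0.0332), Col3a1 (0.84, 0.0485), Col5a1 (0.69, 0.0491) and Col5a2 (0.77, 0.0225). Col2a1 (3.43, 0.0292) came past the low-count filter through its radiated samples alone, so its call gives no support. DESeq2 without the block called 1 member and 3.9% of genes. These 4 genes and Col2a1 were higher in 4 of 4 mice, as 14.2% of all genes tested were, and so was Col5a3 (block edgeR adjusted p 0.0698). In the same fit 7 of 8 macrophage and monocyte markers and 3 of 10 fibroblast markers were higher and 7 of 10 skeletal muscle markers lower, and their part in the result was not tested. Col3a1 read 4083, 1408, 3440.3 and 4953 CPM in radiated and 2679, 1075, 1685 and 1952 CPM in control skin. The groups overlapped, and sample 2 was the lowest of each.

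Col11a1, Col27a1 and Col24a1 had fitted values on the other side of 0 in week 2, at -1.55 (SE 0.83), -0.38 (SE 0.35) and -0.28 (SE 0.29), and none of these passed in edgeR (adjusted p 0.451, 0.669 and 0.711). Without 1 library at a time that of Col24a1 ran from -0.40 to -0.11. A single library decided the sign of Col11a1 and Col27a1. Sample 1 of the control skin read 64.2 CPM for Col11a1 against 3.76 to 7.19 CPM in the other 3, and 53.1 CPM for Col27a1 against 14.2 to 24.2 CPM. Without it the log2 fold changes were 0.39 and 0.12. That library also held 2819 CPM of the growing hair follicle genes, against 29.9 to 145 CPM in the other 3 control samples of week 2; the part of this in the result was not tested.

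In week 3, 2 of 9 members passed in edgeR, both higher, where 27.2% of 17653 genes passed and 13.6% were higher. The members' median log2 fold change was 0.99, beside 0.08 for all genes. Col24a1, a minor fibril chain best known from bone and the developing eye, read 16.1, 6.06, 7.01 and 6.03 CPM in radiated skin and 1.58, 2.25, 2.84 and 2.00 CPM in control skin. The groups did not overlap, and sample 1 of the radiated skin stood above the other 3. Its log2 fold change was 2.05 (SE 0.38, edgeR adjusted p 0.0052), and 1.58 (adjusted p 0.00663) without that library. The annotation places 9530034A14Rik on the opposite strand and D530037P16Rik on the same strand within Col24a1, and whether the counting used strand is not given in the sources used here. Other members overlap annotated genes too. These lie on the same strand for Col1a2, Col3a1, Col5a2 and Col27a1 and on the opposite strand for Col5a1 and Col5a3.

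Col5a2, the second chain of type V collagen, read 823, 663, 1114 and 675 CPM in radiated skin of week 3 and 108, 384, 305 and 320.2 CPM in control skin. Every radiated sample was above every control sample. The log2 fold change was 1.58 (SE 0.36, edgeR adjusted p 0.0115), and it was higher in 4 of 4 mice, as 22.3% of all genes tested were. Col3a1 and Col5a3 did not overlap between the groups either, like Col24a1. Col2a1 did not overlap as well, which makes 5 of 10 members. It was not tested in week 3, with control samples of 0 to 1 counts, and is outside the shares that follow. Of all genes tested, 14.4% had every radiated sample above every control sample and 17.3% every one below. Col3a1 had a log2 fold change of 1.25 (edgeR adjusted p 0.106) and Col5a3 of 1.09 (adjusted p 0.0972).

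For the type I genes the groups of week 3 overlapped. Col1a1 read 3500.0, 3848, 8655 and 5171 CPM in radiated and 366, 3501, 2132 and 4864 CPM in control skin, with a log2 fold change of 0.99 (SE 0.63, edgeR adjusted p 0.267). Sample 1 of the control skin was the lowest of that group for the 6 members of types I, III and V. Without this library Col3a1 passed (0.89, edgeR adjusted p 0.0452), which made 3 calls. The count was also 3 without radiated sample 2, where Col27a1 passed (0.67, adjusted p 0.029), and without radiated sample 1 or control sample 4 with Col2a1 included. Col2a1 came past the low-count filter there through its radiated samples alone, and without it these counts were 2. The count for week 3 also depended on the method: DESeq2 called 5 members and 28.9% of genes, 1 fit of all 35 samples 6 and 33.9%, both with Col2a1 among them, and scaling by total counts 6 and 30.2%, the last with a median shift of 0.24 over all genes.

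Other cell types' markers moved in the same samples of week 3. In edgeR 7 of 8 macrophage and monocyte markers were higher (summed 974 to 2848 CPM in radiated against 426 to 961 CPM in control skin). Of 10 skeletal muscle markers 8 were lower, and 10 fibroblast markers gave 3 higher and 3 lower (summed 1061 to 2347 against 939 to 1546 CPM). Their part in the result was not tested.

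In week 4, 9 of 9 members passed in edgeR, all higher, where 48.4% of 17850 genes passed and 24.2% were higher. The members' median log2 fold change was 3.22, beside 0.02 for all genes. The groups overlapped for none of the 9, and each was higher in 4 of 4 mice. Over all genes tested, 22.9% lay wholly above the control samples, 23.2% wholly below, and 29% were higher in 4 of 4 mice. The same 9 passed with the mouse as a block, with no low-count filter, with either other scaling, with DESeq2, in 1 fit of all samples and without any 1 library. With no library left out, the share of all genes that passed under these settings ran from 33% to 48.4%.

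The type I and III genes reached the highest levels of the study in that group. Col1a1 read 18203, 14324, 11599.6 and 14834 CPM in radiated skin of week 4 and 1159, 1156, 456 and 678 CPM in control skin. The lowest radiated sample was far above the highest control sample, and the log2 fold change was 4.10 (SE 0.32, edgeR adjusted p 9.54e-06). Col3a1 read 16171, 13075, 9691 and 13847 CPM against 1420.0, 1351, 503 and 738 CPM, a log2 fold change of 3.73 (SE 0.35, edgeR adjusted p 2.52e-05). Col1a2, whose chain joins those of Col1a1 in the type I helix, read 10611, 8332, 5124 and 8052 CPM against 995, 1221, 554 and 824 CPM. Its log2 fold change was 3.17 (SE 0.29, edgeR adjusted p 2.16e-05). Sample 3 was the lowest of the radiated and of the control samples for all 3 genes.

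The type V genes rose as well. Col5a1, the chain found in most type V helices, read 2021, 1642, 1412 and 1857 CPM in radiated and 220.1, 236, 149 and 144 CPM in control skin of week 4 (log2 fold change 3.22, SE 0.20, edgeR adjusted p 3.48e-06). Col5a2 rose by 3.63 on that scale (SE 0.25, edgeR adjusted p 4.87e-06) and Col5a3 by 3.06 (SE 0.28, edgeR adjusted p 2.35e-05). Col5a3 encodes another chain, which occurs in fewer tissues. Their radiated samples ran from 1155 to 2229 CPM and from 698 to 975 CPM, and their control samples from 98.1 to 167 CPM and from 63.9 to 146 CPM.

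Col24a1, Col27a1 and Col11a1, which have lower levels, also rose. Col24a1 read 37.4, 26.7, 16.6 and 34.2 CPM in radiated and 1.96, 2.21, 1.88 and 2.15 CPM in control skin (log2 fold change 3.81, SE 0.26, edgeR adjusted p 5e-06). It rose 14.0-fold to 4.02 CPM per kb, and Col1a1 17.2-fold to 2486 CPM per kb. Col27a1, a chain of thin fibrils best known from cartilage, read 99.3, 72.9, 65.6 and 93.5 CPM against 22.1, 21.0, 17.3 and 18.3 CPM (log2 fold change 2.08, SE 0.15, edgeR adjusted p 6.89e-06). Col11a1, a chain of type XI collagen, the close relative of type V, read 38.7, 18.4, 20.3 and 18.7 CPM against 7.46, 4.16, 5.89 and 3.58 CPM. Its log2 fold change was 2.20 (SE 0.31, edgeR adjusted p 0.000314), and 1.87 without sample 1 of the radiated skin. Whether the increase differed between genes was not tested.

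Other cell types' markers moved in the same samples of week 4. The summed level of 10 fibroblast markers was 1777 to 2129 CPM in radiated and 993 to 1220 CPM in control skin, and 6 of the 10 were higher and 3 lower in edgeR. All 8 macrophage and monocyte markers were higher (summed 1134 to 1832 against 243 to 382 CPM), 6 of 10 skeletal muscle markers were lower and 1 higher, and 8 of 12 tested hair follicle markers were higher. The summed level of the hair follicle markers was 6134 CPM in radiated sample 3, against 46.7 to 291 CPM in the other 3 radiated and 61.8 to 79.3 CPM in the control samples. With the mouse as a block these counts were 2 lower and 0 higher for muscle and 5 higher for hair follicle. Of the other lists, 5 of 6 endothelial markers were higher, keratinocyte markers gave 2 higher and 4 lower of 7, adipocyte markers 2 lower of 10, myofibroblast and smooth muscle markers 2 higher and 2 lower of 7, and cartilage markers 1 higher and 1 lower of 4 tested. The part of these in the result was not tested. Among the fibroblast markers, the receptor gene Pdgfra rose by 2.06 on the log2 scale (SE 0.13, edgeR adjusted p 3.89e-06) while Lrig1 fell by 0.95 (SE 0.19, adjusted p 0.00252).

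Col2a1, the chain of cartilage collagen, had few counts in every group. The summed counts of the 4 radiated samples were 153, 128, 52 and 19 in weeks 1 to 4, against 19, 12, 2 and 10 in control skin. In week 1 the radiated samples read 0.128, 3.02, 1.35 and 2.75 CPM and the control samples 0.0477 to 0.380 CPM, so that radiated sample 1 lay among the controls. In week 2 the radiated samples read 1.11, 0.526, 1.90 and 2.83 CPM, all above the control range of 0 to 0.237 CPM. In week 3 they read 0.137, 0.513, 1.10 and 0.415 CPM, again all above the control range of 0 to 0.0571 CPM. Exact two-sided permutation tests on log2 CPM gave p of 0.114, 0.0286, 0.0286 and 0.486 for weeks 1 to 4, and 0.152, 0.0571, 0.0571 and 0.486 after Benjamini-Hochberg adjustment over the 4 weeks. With 4 against 4 samples, 0.0286 is the smallest p possible. With no low-count filter, edgeR gave adjusted p of 0.183, 0.102, 0.0185 and 0.649. These levels are low: 3 counts, taken as a floor, correspond to 0.105 to 0.173 CPM. The 8 cartilage markers summed to 134 to 161 CPM in radiated and 105 to 191 CPM in control skin of week 1, and none of the 4 of them tested in that week passed in edgeR. In week 2 they summed to 164 to 279 CPM against 153 to 215 CPM, and 0 of 3 passed. In week 3 the sums, 56.7 to 144 CPM in radiated and 206 to 283 CPM in control skin, did not overlap, and of 4 markers tested 1 was higher and 1 lower. Such a sum can rest mostly on 1 gene. In control skin of week 4, Sox9 averaged 228 CPM, beside a median of 234 CPM for the sum of the 8. The sums therefore do not show how the markers moved as a set. The part of these markers in the result was not tested.

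A model of the 32 samples other than sham then tested whether that difference changed from week to week. Of the 10 members 9 passed the F test in edgeR, where 15.6% of 19338 genes did. The count was 6 without the mice numbered 3. The exception was Col2a1 (adjusted p 0.379), and the smallest adjusted p was that of Col24a1 (2.10e-05). From week 1 to 2, 0 members passed for the step, as did 0% of genes, and 0 had an unadjusted p under 0.05 (DESeq2 0). From week 2 to 3, Col24a1 alone passed, with a step of 2.33 on the log2 scale (SE 0.52, edgeR adjusted p 0.00839), where 6.9% of genes passed and 2.81% rose. Without the mice numbered 1 or 3 it did not pass.

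From week 3 to 4 the step passed for Col1a2 (2.68), Col5a1 (2.29), Col5a2 (2.08) and Col27a1 (1.58), with adjusted p of 0.0341 to 0.0416 in edgeR, where 0.419% of genes passed. Col1a1 had the largest step upward, 3.15 (SE 0.75), at an adjusted p of 0.0571. The count of 4 was 6 with the mouse as a block (0.905% of genes), 8 in DESeq2 (2.38%), 1 with total-count scaling (0.315%), 7 without the mice numbered 1 and 0 without those of any other number.

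Within radiated skin, 9 members differed between weeks in edgeR, where 23.3% of 18752 genes did. Without the samples numbered 1 the count was 6. Col1a1 averaged 6513 ± 2879, 3177 ± 1565, 5293 ± 2354 and 14740.2 ± 2710.3 CPM in weeks 1 to 4 (SD, n = 4 each). Weeks 1, 2 and 3 lay within 1 SD of the next group in the order, and week 4 lay 2.86 SD, by the larger SD, above week 1. Col24a1 averaged 2.79 ± 1.35, 2.29 ± 0.36, 8.80 ± 4.89 and 28.7 ± 9.22 CPM. All of its radiated samples of weeks 3 and 4 were above every sample of the other 7 groups. Those 7 group means, from 2.05 to 2.79 CPM, differed from their neighbours in the order by at most 1.24 SD. Col5a2 had the same order, with 346 ± 101, 333 ± 125, 819 ± 209.9 and 1678 ± 439 CPM.

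Control skin changed over the weeks as well. Within it 6 of 9 members tested differed between weeks in edgeR, where 23.9% of 18192 genes did: Col1a1, Col1a2, Col3a1, Col5a1, Col5a2 and Col5a3. Control Col1a1 averaged 4731 ± 1766, 1858 ± 876, 2716 ± 1923 and 862 ± 353 CPM in weeks 1 to 4 (SD, n = 4 each), lowest in week 4. Only 2 passed with the replicate number as a block (22.7% of genes) and 2 with total-count scaling (24.8%), and 0 passed when samples numbered 2, 3 or 4 were left out. In control skin the summed skeletal muscle markers had medians of 63564, 87277, 71298 and 32178 CPM in weeks 1 to 4. Those of the fibroblast markers were 1525, 960, 1333 and 1021 CPM, and of the macrophage and monocyte markers 501, 226, 724 and 319 CPM. Their part in the result was not tested.

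Sham skin gave a second reference. All comparisons with it use the same 3 samples, and those of radiated and of control skin are therefore not independent of each other. Against sham, 0 of 10 members passed in week 1 in edgeR (1.75% of 18228 genes did), with 3 at an unadjusted p under 0.05 and 1 called by DESeq2, which called 6.14% of genes. In week 2, 2 passed (5.06% of 18036 genes did, 2.16% higher and 2.9% lower): Col11a1 fell by 1.28 (SE 0.29, edgeR adjusted p 0.0397), and Col2a1 had 2.96 (SE 0.69, adjusted p 0.0433). Col2a1 was tested only because its radiated samples came past the low-count filter, so that its call gives no support. With the replicate number as a block, where 2.76% of genes passed, only Col11a1 did, and neither did without sham sample 2 or 3 or without radiated sample 1 or 3.

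In week 3, 5 of 9 members were higher than in sham skin in edgeR, where 18.2% of 18220 genes passed, 10.4% higher and 7.75% lower. They were Col5a2 (1.79), Col24a1 (1.73), Col5a3 (1.43), Col5a1 (1.29) and Col3a1 (1.27), with adjusted p of 0.0103 to 0.0343. The type I genes had values of 0.85 and 0.52 (adjusted p 0.194 and 0.329). The count fell to 3, 2 and 1 without sham samples 1, 2 and 3, and was 4 with the block (16.5% of genes), where Col3a1 and Col5a1 no longer passed and Col11a1 passed as lower.

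In week 4, 8 of 9 members were higher than in sham skin in edgeR, where 26.7% of 18346 genes passed and 15.2% were higher. Col24a1 led with 3.43 (SE 0.31, adjusted p 0.000267), before Col5a2 (2.83), Col5a1 (2.61), Col3a1 (2.39), Col1a1 (2.33), Col5a3 (2.18), Col27a1 (2.00) and Col1a2 (1.95). The difference in Col1a1 was 5.03-fold against sham and 17.2-fold against control skin of the same week. Col11a1 was the one not to pass (0.59, SE 0.31, edgeR adjusted p 0.189), and sham skin, at 12.0, 17.3 and 20.1 CPM, overlapped radiated skin of week 4.

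Markers of other cell types moved in the same comparisons with sham. In edgeR 8 of 8 macrophage and monocyte markers were higher in radiated skin of both weeks 3 and 4 (summed 974 to 2848 and 1134 to 1832 CPM against 200.5 to 408 CPM). Hair follicle markers were lower for 10 of 16 in week 3 and 5 of 16 in week 4, endothelial markers higher for 2 and 6 of 6, and skeletal muscle markers lower for 1 and 7 of 10 (0 and 1 higher). Of 10 fibroblast markers 6 were higher in each week, and 1 and 2 were lower. Their part in the result was not tested.

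Control skin itself was set against sham. In weeks 1 and 2, 0 of 9 members passed in edgeR (4.92% and 2.44% of genes did, 3.28% and 1.37% higher and 1.65% and 1.06% lower), 1 in each had an unadjusted p under 0.05, and DESeq2 called 1 (16.5% of genes) and 0. In week 3 Col11a1 fell by 1.50 (SE 0.30, edgeR adjusted p 0.019), the only one of 9 (11.4% of 17907 genes passed, 5.18% higher and 6.19% lower). It did not pass without sham sample 2 or 3 or control sample 3, nor in 1 fit of all samples. In week 4, 2 of 9 were lower (3.65% of 17925 genes passed, 1.76% higher and 1.9% lower), Col1a1 by a fitted -1.82 (SE 0.38, edgeR adjusted p 0.0418) and Col11a1 by -1.66 (SE 0.29, adjusted p 0.0241). All 9 fitted values were below 0, with a median of -0.93, and 5 of the 9 did not overlap, where 9.64% of all genes tested lay wholly below sham and 11.2% wholly above. The count was 6 in DESeq2 (9.35% of genes) and 0 with the block or in 1 fit of all samples, and no call was left without sham sample 2 or 3, or without control sample 2, 3 or 4. Growing hair follicle markers summed to 61.8 to 79.3 CPM in control skin of week 4 and 2356 to 36107 CPM in sham skin. Fibroblast markers summed to 993 to 1220 against 592 to 920 CPM. Keratinocyte markers (17321 to 19650 against 8262 to 15870 CPM) and endothelial markers (204 to 313 against 108 to 178 CPM) were also wholly above sham. The sums of the other cell type lists overlapped. Their part in the result was not tested.

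**Figure D3:**
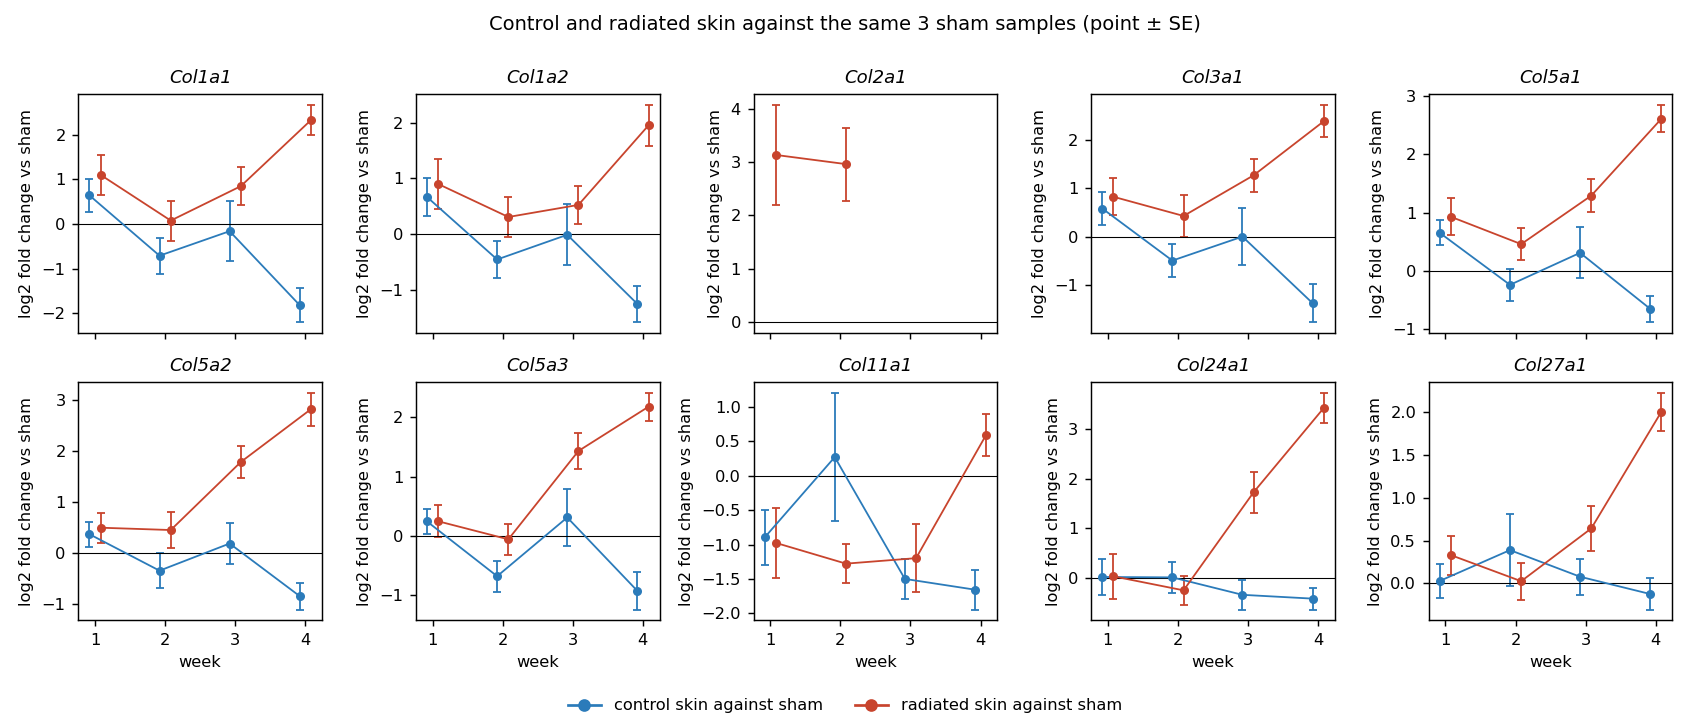
Log2 fold change of control and of radiated skin against the same 3 sham samples at weeks 1 to 4, as point and standard error, with an axis of its own for each member. Lines join different mice; Col2a1 is drawn only where it was tested. In week 4 the radiated points of 8 members are at 1.95 or more and every control point is below 0.

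Col11a1 differed from the other members in its reference level. Its mean was 16.5 ± 4.13 CPM in sham skin (SD, n = 3) and lay between 5.27 and 8.86 CPM in 6 of the 8 other groups, control week 2 and radiated week 4 being higher. Sham skin also held the highest growing hair follicle markers, and the control samples with 64.2, 13.5 and 12.2 CPM of Col11a1 (week 2 sample 1, week 1 samples 1 and 4) had 2819, 7474 and 1523 CPM of those markers. Control sample 4 of week 3, at 2042 CPM of the markers, read 7.65 CPM, and radiated sample 1 of week 1, at 154 CPM, read 12.5 CPM. In radiated skin of week 4, sample 1 read 38.7 CPM at 291 CPM of the markers, and sample 3 read 20.3 CPM at 6134 CPM. The part of hair follicles in these differences was not tested. Col11a2, the partner chain of Col11a1, which is not among the 10 genes, read 2.39 to 3.52 CPM in radiated and 1.11 to 2.22 CPM in control skin of week 4.

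The ratio of Col3a1 to Col1a1, often used as a measure of early against mature matrix, was taken per sample from CPM per kb. It averaged 0.922 ± 0.099 in sham skin (SD, n = 3). In control skin it averaged 0.899 ± 0.104, 1.10 ± 0.13, 1.14 ± 0.27 and 1.22 ± 0.07 in weeks 1 to 4 (SD, n = 4 each). In radiated skin it averaged 0.832 ± 0.271, 1.23 ± 0.37, 1.34 ± 0.44 and 0.951 ± 0.045. The order of the radiated groups from week 1 to week 3 lay within the spread of the samples, which was wide: the single values ran from 0.484 to 1.96.

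In week 4 the radiated samples had ratios of 0.947, 0.973, 0.890 and 0.995 and the control samples 1.31, 1.25, 1.18 and 1.16. The groups did not overlap, and the ratio was lower in radiated skin in 4 of 4 mice. The log2 difference was -0.36, a ratio of 0.779, with p 0.0286 in an exact two-sided permutation test, the smallest p that 4 against 4 samples allow. Adjusted over the 12 comparisons of this ratio it was 0.343. Over the 4 mice, an exact sign-flip permutation test gave p 0.125, the smallest it can give. None of the 12 comparisons passed after adjustment and 1 had an unadjusted p under 0.05. With 3 sham samples against 4 the smallest p possible is 0.0571. Control skin of week 4 against sham reached that value (log2 difference 0.41, exact permutation p 0.0571, adjusted 0.343), also without overlap. Radiated skin of week 4 differed from sham by 0.05 (exact permutation p 0.629).

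The ratio depended on which type I chain stood below the line. With Col1a2 in place of Col1a1, the log2 difference of radiated and control skin of week 4 was 0.65 instead of -0.36 (adjusted exact permutation p 0.171), with samples of 1.46 to 1.82 against 0.860 to 1.37. The ratio of the type I genes to each other, Col1a1 to Col1a2, was 1.55, 1.55, 2.04 and 1.66 in radiated and 1.05, 0.854, 0.743 and 0.742 in control skin of week 4. The groups did not overlap. It was 1.29 to 2.02 in radiated and 0.694 to 1.38 in control skin of week 3, and 1.14 to 1.39 in sham skin. Type I collagen is usually a helix of a pair of Col1a1 chains with 1 Col1a2 chain.

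**Figure D4:**
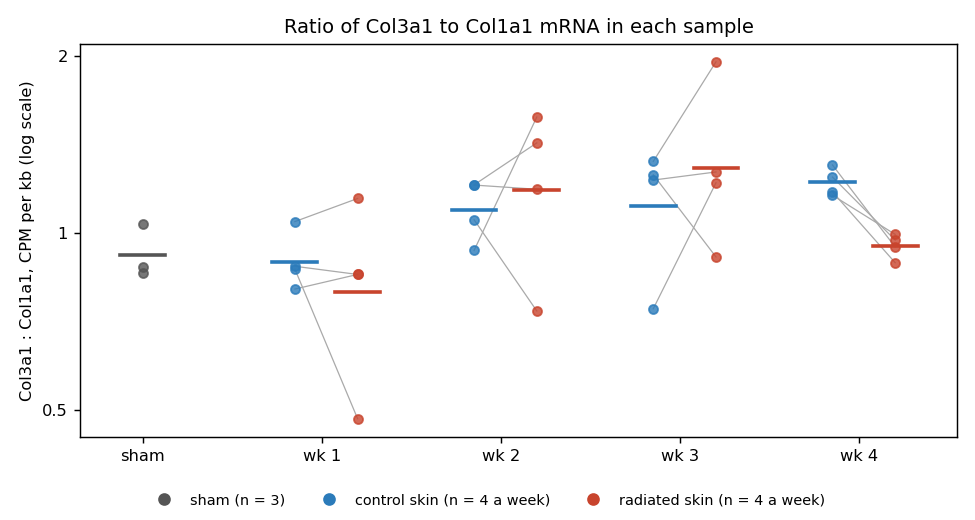
Ratio of Col3a1 to Col1a1 in CPM per kb for every sample on a log axis, with bars at the means of the log values and grey lines joining the samples taken as 1 mouse. In week 4 all 4 lines fall from control to radiated skin, and in weeks 1 to 3 lines run both ways.

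Within type V, the ratio of Col5a2 to Col5a1 per kb was 1.51 ± 0.20 in radiated and 1.03 ± 0.20 in control skin of week 3 (SD, n = 4 each). In week 4 it was 1.21 ± 0.16 against 0.930 ± 0.091. The samples overlapped in both weeks (1.24 to 1.67 against 0.820 to 1.26, and 1.04 to 1.40 against 0.834 to 1.05). In week 4, type V genes made up 11.2% ± 1.7 of the type I, III and V mRNA per kb in control skin, against 8.62% ± 0.34 in radiated skin (SD, n = 4 each). The samples, at 10.1% to 13.7% and 8.25% to 8.93%, did not overlap. The share in sham skin was lower than in either, at 7.27% ± 1.32 (SD, n = 3). Before week 4 the samples overlapped. Control skin averaged 6.48%, 7.88% and 10.1% in weeks 1 to 3, and radiated skin 5.88%, 7.57% and 10.3%.

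Most genes that make collagen chains into fibrils were higher in radiated skin in week 4. Of 30 genes for chain processing and crosslinking, 25 were higher and 3 lower in edgeR, where 24.2% of all genes were higher and 24.2% lower, with a median log2 fold change of 1.57. P4ha3, a subunit of a prolyl hydroxylase, rose by 3.29 (SE 0.24, adjusted p 7.17e-06) and Lox, which begins crosslinks, by 2.85 (SE 0.25, adjusted p 1.82e-05). Pcolce2, an enhancer of procollagen trimming, fell by 2.02 (SE 0.11) and P3h2, another prolyl hydroxylase, by 0.85 (SE 0.15). In week 3, 10 of the 30 were higher and 2 lower, where 13.6% of all genes were higher and 13.6% lower. In weeks 1 and 2 none passed, and with the mouse as a block 5 were higher in week 2, where 2.85% of all genes were.

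Proteins that bind to fibrils gave 12 higher and 2 lower of 15 in week 4. Tnc, the tenascin of wounds, went from 7.57 ± 1.47 CPM in control to 3718 ± 1083 CPM in radiated skin (SD, n = 4 each; log2 fold change 8.95, SE 0.30, edgeR adjusted p 2.20e-07). Col12a1, which lies on the surface of fibrils, rose by 4.69 (SE 0.28). Fmod and Tnxb, a fibril-regulating proteoglycan and the tenascin of mature dermis, fell by 1.25 (SE 0.30, adjusted p 0.00705) and 0.62 (SE 0.19, adjusted p 0.0208).

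Genes of collagen breakdown rose in the same samples, 10 higher and 1 lower of 11, with a median of 3.54. Mmp13, a collagenase, read 57.1 ± 7.42 CPM in radiated and 0.0744 ± 0.0738 CPM in control skin, and Timp1, an inhibitor of such enzymes, 35.9 ± 8.73 against 0.187 ± 0.217 CPM. Timp3 fell by 1.57 (SE 0.16). In week 3, 8 of the 11 were already higher and 1 lower, where 13.6% of all genes were higher and 13.6% lower.

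Of 8 collagen receptor genes, 4 were higher and 1 lower in week 4, beside 24.2% of all genes in each direction. Itgb1, the common beta chain of the collagen-binding integrins, rose by 1.32 (SE 0.11, edgeR adjusted p 1.56e-05) and Ddr1, a receptor kinase of epithelia, fell by 1.43 (SE 0.24, adjusted p 0.000895). The TGF-beta pathway, a main inducer of collagen genes in fibroblasts, had 11 higher and 3 lower of 16, with a median of 0.54. Inhba, an activin subunit, rose by 4.94 (SE 0.32), while Ccn2, a target of the pathway, fell by 1.14 (SE 0.18, adjusted p 0.000701) and Smad2, a signal transducer of the pathway, by 0.39 (SE 0.09).

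Genes that followed the members most closely over the 35 samples were found by Pearson's r of log2 CPM among 12524 genes, as a description. The samples share the scaling, and the 4 radiated samples of week 4 lie apart for these genes. Most like Col1a1 were C1qtnf6 (r = 0.94), Cercam, Col6a2, Col15a1, Sparc, Col6a3, Mfap2 and Adamts2 (r = 0.89). Most like Col24a1 were Pcsk5 (r = 0.95), Clstn2, Ccn4 and Lamb1, and most like Col27a1 were Clstn2 (r = 0.91), Srpx2, Adam12 and Tspan11.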

How the data were processed

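RNA of 35 mouse skin samples had been sequenced in bulk, and the table the authors deposited holds kallisto's estimated counts, 1 row a gene. Trim Galore 0.6.7, kallisto 0.46.2 and the build mm10 are named per the submitters' processing notes, and kallisto and DESeq2 per the labels' protocols. The transcriptome release is not given in the sources used here. Between 29.5% and 32.5% of a sample's values were not whole, and all were rounded. Every column matched 1 sample (0 columns without one). No 2 of 595 library pairs held identical values, and the smallest reduced chi-square among 51 pairs of 1 group was 20.0, far above counting noise.

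Totals of 17362853 to 28487885 counts put 3 counts, used as a floor, at 0.105 to 0.173 CPM. This covers counting error only. Genes were filtered with filterByExpr, scaled by TMM and tested by edgeR 4.0.16 (quasi-likelihood, R 4.3.3, limma 3.58.1), with Benjamini-Hochberg adjustment over all genes tested and a threshold of 0.05. Each comparison was fitted on its own samples. Over all 35 samples 19813 genes were kept. SE was taken as the size of the log2 fold change over the square root of F, and log2 CPM used a prior count of 2. CPM per kb divides by the longest coding transcript of GENCODE M21, so it depends on that choice of isoform. Ratios and Col2a1 were tested by exact permutation (scipy 1.17.1), for Col2a1 as an addition made after seeing the data.

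The block by mouse rests on the 35 samples having come from 19 mice, which leaves 16 irradiated mice for 16 pairs. Deviations from the group means correlated on average at 0.07, 0.17, 0.05 and -0.02 between same-numbered samples of weeks 1 to 4, and at -0.02, -0.06, -0.02 and 0.01 between others. Sham comparisons share only a number. The p-values measure the spread between these samples.

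The members and all gene lists were chosen with earlier results of these data known. All 10 members are named, with up to 2 genes that rose most and 2 that fell most per related list, among those that passed in week 4 with a mean of at least 5 CPM. One gene that this rule would name is not reported here. The named neighbours are the 8 genes that correlate best with Col1a1 and the 4 best each for Col24a1 and Col27a1. Alternatives were other scalings, no low-count filter, DESeq2 1.42.0, the block, 1 fit of all samples and leaving out each library, or each replicate number in fits over weeks. On simulated data for week 4, 21% of 100 genes changed 2-fold and 100% of 100 changed 8-fold were recovered. For the change over weeks these shares were 7% and 100%.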

Additional observations from a re-analysis of the deposited data

Results flagged for a closer look

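Among 88 group-wise sets of 4 samples, 5 had a sample far from the other 3 (Dixon's test), where chance flags about 1 in 20 groups. Col11a1 had such samples in control skin of week 2 (sample 1, 64.2 CPM) and in radiated skin of week 4 (sample 1, 38.7 CPM). The others were Col24a1 in radiated skin of week 3 (sample 1, 16.1 CPM), Col27a1 in control skin of week 3 (sample 4, 28.6 CPM) and the ratio of Col3a1 to Col1a1 in control skin of week 3 (sample 4, 0.744).

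The difference between radiated and control skin differed between weeks for 9 members in edgeR's F test, where 15.6% of 19338 genes passed, and for 6 without the mice numbered 3. The adjusted p values were 0.00329 for Col1a1, 0.00261 for Col1a2, 0.00194 for Col3a1, 0.000399 for Col5a1, 8.63e-05 for Col5a2, 0.000591 for Col5a3, 0.0370 for Col11a1, 2.10e-05 for Col24a1 and 0.000198 for Col27a1.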

How the results depend on the processing

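In week 4 the counts for radiated skin, 9 against control and 8 against sham, were the same under every alternative run. The count for the change of the difference over weeks was 9 in all but the fits that left out a replicate number, where it was 6 to 8 (6 without number 3). Within radiated skin it was 9 or 10, and 6 to 8 in those fits (6 without number 1). The other counts moved further. DESeq2 called 1 member for radiated against control, radiated against sham and control against sham skin of week 1 and for radiated against control skin of week 2, and it called 5 for radiated against control in week 3, 6 for control against sham in week 4 and 8 for the step from week 3 to 4. With the replicate block the counts were 5, Col2a1 included, for radiated against control and 1 for radiated against sham in week 2, 0 for control against sham in week 4 and 2 over weeks within control skin. In 1 fit of all samples they were 1 for both comparisons of radiated skin in week 2 (2.75% and 16.4% of genes), 6 for radiated against control in week 3, and 0 for control against sham in weeks 3 and 4 (11.5% and 3.01%). With total-count scaling they were 6 for radiated against control in week 3, 1 for the step from week 3 to 4 and 2 within control skin, and that scaling turned the split of all genes in week 3 from 2408 higher and 2397 lower into 4054 and 1270.

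Leaving out 1 library, or all samples of 1 replicate number for the steps between weeks and for control skin over weeks, gave counts of 0 to 1 for radiated against control and against sham skin in week 1, radiated against control in week 2, control against sham in weeks 2 and 3 and the step from week 2 to 3. The count for radiated against sham ran from 0 to 1 in week 2 and from 1 to 6 in week 3, that for control against sham in week 4 from 0 to 2, the step from week 3 to 4 from 0 to 7 and control skin over weeks from 0 to 6. In week 1 Col2a1 passed against control without sample 1 of radiated skin, and against sham a member passed without that sample and also without sample 2. In week 2 Col2a1 passed against control without radiated sample 2, and in control against sham a member passed without control sample 1. Col2a1 came past the low-count filter against control through its radiated samples alone, so those calls give no support.

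The log2 ratio of Col3a1 changed sign with Col1a2 in place of Col1a1 for radiated against control in weeks 1 and 4 (0.077 and 0.65) and control against sham in weeks 2, 3 and 4 (-0.063, -0.081 and -0.20). Without 1 library it ran from -0.34 to 0.070 for radiated against control, -0.38 to 0.032 for radiated against sham and -0.11 to 0.048 for control against sham in week 1, from -0.025 to 0.34 for radiated against control in week 2 and from -0.0021 to 0.14 for radiated against sham in week 4. Fitted values near 0 in week 1 changed sign for Col5a3 (-0.00258 with size factors, -0.0075 in DESeq2, -0.017 with the block), Col11a1 (0.041 with total-count scaling) and Col24a1 (-0.054 with the block). Without 1 library the week 1 values ran from -0.034 to 0.27 for Col5a2, -0.12 to 0.18 for Col5a3, -0.33 to 0.25 for Col11a1 and -0.20 to 0.30 for Col24a1. In week 2 they ran from -1.89 to 0.39 for Col11a1 and -0.60 to 0.12 for Col27a1, and in week 3 from -0.27 to 0.54 for Col11a1. The causes were not tested. Depth limits Col2a1, whose control samples held 0 to 8 counts.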
